A study of Mus musculus with 8 samples.

Results

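The expression of 39 genes that encode the DNA replication machinery and the regulators of S-phase entry was examined in outflow veins of mouse arteriovenous fistulas, surgical joins of an artery to a vein that serve as access for hemodialysis. The genes were chosen by name from the 23358 rows of the deposited table, and all 39 were found. The 8 vein samples sequenced came from C57BL6J animals in which chronic kidney disease had been modelled, and 28 days later the fistula was built from the carotid artery and the jugular vein. The MSC group of 4 samples had received 250000 MSCs (mesenchymal stem cells) of a sex-matched C57 donor, laid on the adventitia, the outer layer of the vein, directly after surgery. The other 4 samples, the vehicle group, carry the treatment label Vehicle, whose composition the labels do not give. All veins were taken 3 days after fistula creation. The labels give neither the age of the mice nor the source tissue of the MSCs, nor the number of animals behind a sample, and the p-values therefore cover the spread among these 8 samples, which may in part be technical. Donor and recipient share their strain background, so RNA of the placed cells cannot be told apart from that of the vein.

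Replication of DNA starts when the origin recognition complex, Cdc6 and Cdt1 load the ring-shaped MCM helicase onto origins in G1. Cyclin E with Cdk2, and the kinase Cdc7, then help Cdc45 and the GINS complex to join the ring, and polymerases, the sliding clamp Pcna and its loader follow. Most of these genes are transcribed as cells leave G1, when E2F transcription factors are released from the retinoblastoma family of pocket proteins, and their RNA is therefore widely used as a sign of cells that enter or pass through S phase. In the wall of a fistula vein, division of smooth muscle cells, fibroblasts and other cells is known to contribute to the thickening that narrows the lumen.

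The members share E2F as a known regulator, so its binding motif was searched in the 250 bases before the RefSeq start of each gene. Promoter sequences of RefSeq on build GRCm38.p6, the assembly behind mm10, were found for 32 of the 39 genes, which had 38 promoters in all. The motifs TTTCCCGC, TTTGCCGC, TTTCGCGC and TTTGGCGC were read on both strands, and matches that overlap were each counted. At least 1 of them stood in 8 of the 38 promoters (21.1%), against 611 of all 32851 RefSeq promoters of the same length (1.86%). Counted by gene, 8 of 32 members (25.0%) held a motif, against 342 of 8621 tested genes with a promoter entry (3.97%). The 8 genes are Rfc3, Mcm5, Mcm6, Mcm7, Uhrf1, Gins3, Cdc6 and Pola1. Those of Rfc3, Mcm5 and Mcm6 are shown because the levels of these 3 genes are described in full below. They run 5′ to 3′ on the strand of the gene and end at the base before the start that RefSeq gives, with the motif in capitals. The starts of GENCODE vM21 differ: the sequences of Mcm5 and Mcm6 stop short of the GENCODE gene, whereas the last bases of the Rfc3 sequence, motif included, lie inside it. The motifs of Mcm7, Uhrf1, Gins3 and Cdc6 also lie inside the GENCODE gene, and that of Pola1 lies before it. The E2f1 sequence, which held no motif, lies wholly inside its GENCODE gene. The counts above thus refer to RefSeq starts only. The Rfc3 promoter lies at chr5:151651209-151651458 on the minus strand, that of Mcm5 at chr8:75109259-75109508 on the plus strand and that of Mcm6 at chr1:128359706-128359955 on the minus strand.
Rfc3: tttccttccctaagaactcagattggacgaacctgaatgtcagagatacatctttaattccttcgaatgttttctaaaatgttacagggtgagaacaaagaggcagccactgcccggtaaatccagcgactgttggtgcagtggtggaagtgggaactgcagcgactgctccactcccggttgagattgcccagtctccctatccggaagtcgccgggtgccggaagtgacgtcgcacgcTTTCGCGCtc
Mcm5: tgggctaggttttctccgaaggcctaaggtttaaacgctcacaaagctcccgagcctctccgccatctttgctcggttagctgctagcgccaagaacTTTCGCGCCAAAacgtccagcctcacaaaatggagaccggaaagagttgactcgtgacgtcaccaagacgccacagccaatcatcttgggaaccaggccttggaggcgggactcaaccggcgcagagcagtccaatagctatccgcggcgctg
Mcm6: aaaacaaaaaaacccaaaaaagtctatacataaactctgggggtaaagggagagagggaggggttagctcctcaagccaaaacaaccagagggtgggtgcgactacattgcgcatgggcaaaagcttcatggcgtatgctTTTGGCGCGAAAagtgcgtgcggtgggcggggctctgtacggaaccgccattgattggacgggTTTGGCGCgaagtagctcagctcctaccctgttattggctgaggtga
The motif of Rfc3 began 10 bases before the RefSeq start. Mcm5 and Mcm6 each had matches on opposite strands that overlap in the same run, and Mcm6 had a further match that began 47 bases before the RefSeq start. A match describes these letters only, and no binding was measured here. An excess can follow from choosing known E2F targets by name, and its link to the differences between the groups was not tested.

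Levels are given as RPKM, which scales reads to the length of the gene and to the reads of the library, as the authors deposited them. Reads recovered from the steps of these values came to 29877330 to 38243252 per sample in the MSC group and 26947202 to 33266719 in the vehicle group, and each of the 39 genes had between 137 and 6387 reads in every sample. Over the 8 samples the mean level ran from 2.34 RPKM for Gins3 to 83.3 RPKM for Pcna, with a median of 8.28 RPKM over the 39 genes. Smooth muscle, endothelial and fibroblast markers of the vein wall were present in all samples. Of the smooth muscle markers, Acta2 was at 96.6 to 188 RPKM in MSC and 70.1 to 175 RPKM in vehicle veins. Myh11 was lower, at 4.56 to 6.89 RPKM in MSC and 6.74 to 15.5 RPKM in vehicle veins. Myocd was lowest, at 0.09 to 0.24 RPKM in MSC and 0.14 to 0.43 RPKM in vehicle veins.

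All 39 genes had a higher mean in MSC veins than in vehicle veins, and none of the differences passed the threshold. The log2 fold changes, on log2(RPKM + 1), ran from 0.11 for Gins4 to 0.51 for E2f1, with a median of 0.32, against a median of 0.04 over the 12129 genes tested. Positive log2 fold changes made up 59.5% of all genes tested. In limma, 0 of the 39 had an adjusted p under 0.05 (0.231% of all genes did, and 0.0247% with MSC higher), and the lowest adjusted p was 0.0608, for Gins2. Voom on the recovered reads also called 0 of the 39, with a lowest adjusted p of 0.0969. An unadjusted p under 0.05 was reached by 21 of the 39 genes in limma, whereas 10.1% of all genes reached it in limma in the direction of higher in MSC. In voom 20 of the 39 reached it, and the share over all genes in voom is not given here. In 7 genes, Gins2, Rfc5, E2f1, Rfc2, Tk1, Rfc3 and E2f2, every MSC sample lay above every vehicle sample, which held for 5.61% of all genes. The 95% intervals of the log2 fold changes reached at most 0.88, for Mcm2, and 21 of them lay above 0. In bulk samples, more cells of a type and more RNA per cell cannot be told apart.

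**Figure D1:**
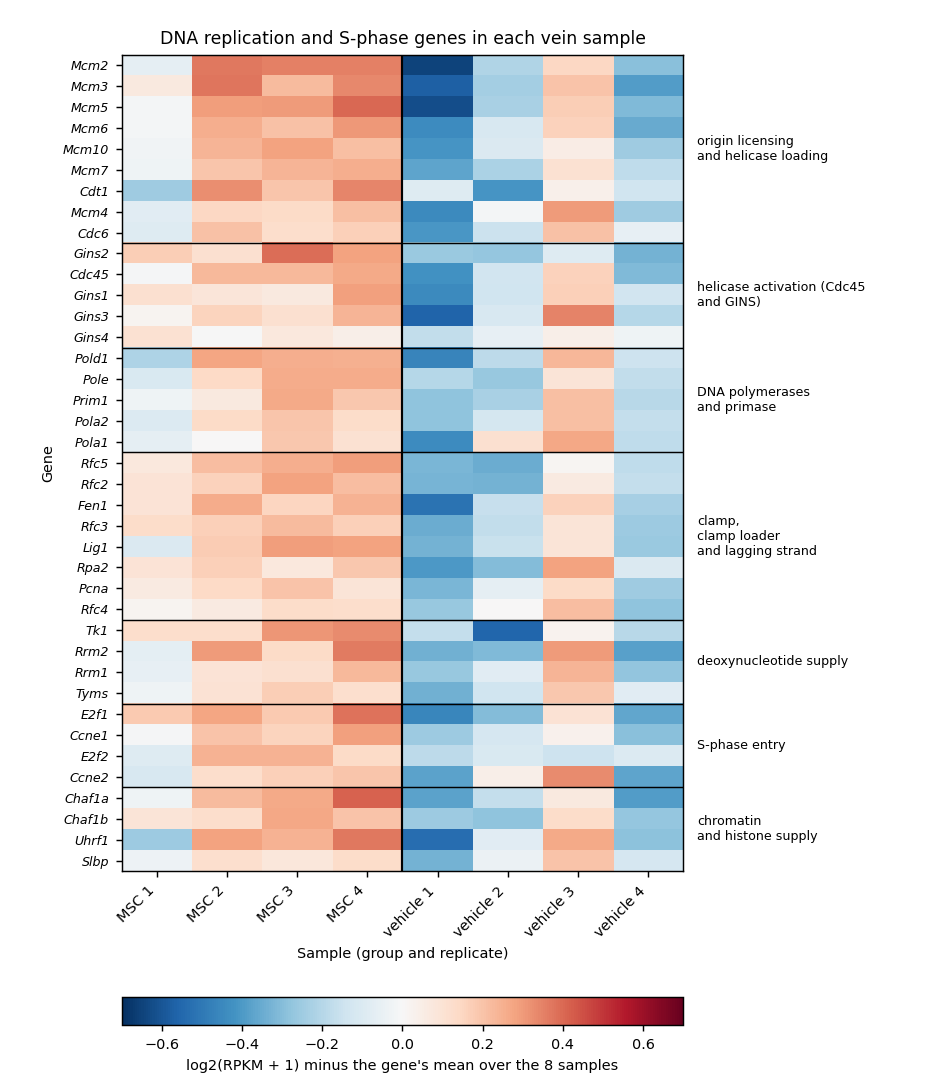
Each row is a gene, ordered by role, and each column a vein sample, with the 4 MSC samples left of the 4 vehicle samples. Colour gives log2(RPKM + 1) minus the mean of that gene over the 8 samples. Red prevails in MSC replicates 2 to 4 and in vehicle replicate 3, and blue in vehicle replicates 1, 2 and 4.

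**Figure D2:**
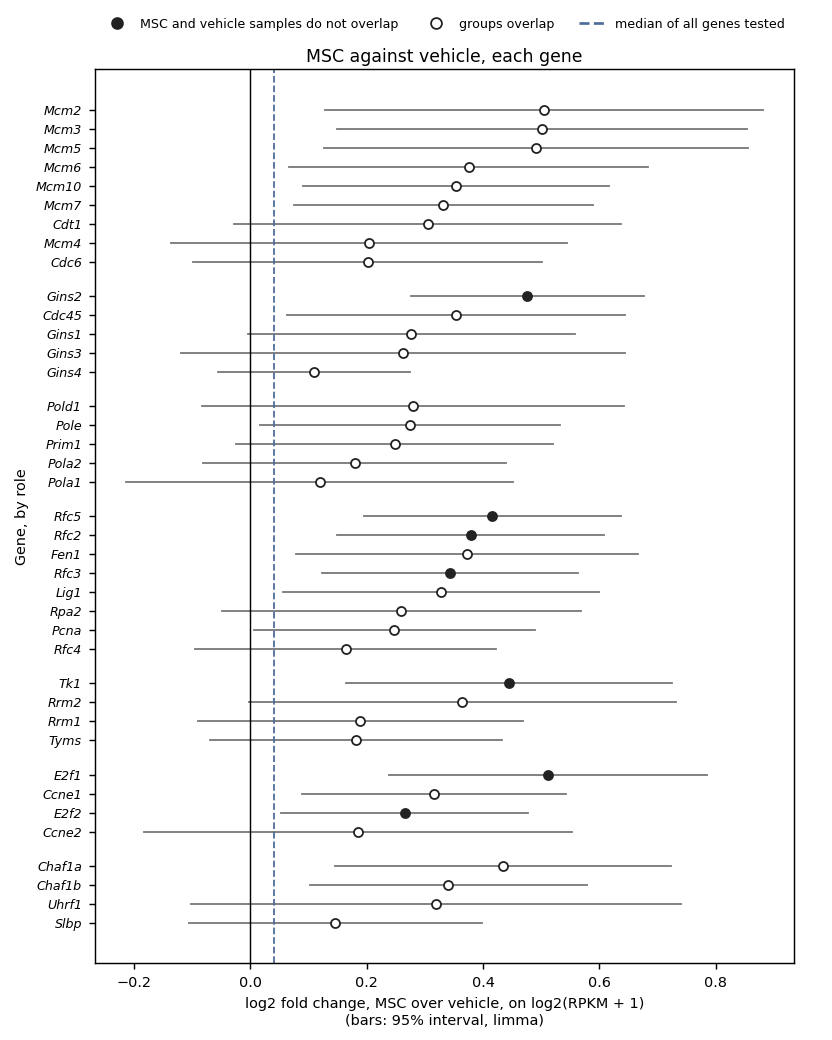
Points give the log2 fold change of MSC over vehicle for each of the 39 genes, grouped by role, with 95% intervals from limma (n = 4 each). All 39 points lie right of 0, and filled points mark the 7 genes whose groups did not overlap.

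The regulators of S-phase entry included the largest fold change of the set. E2f1, an activator of replication genes, was at 8.45, 9.07, 8.45 and 9.83 RPKM in MSC replicates 1 to 4, and at 5.06, 5.75, 7.92 and 5.47 RPKM in vehicle replicates 1 to 4. Every MSC sample exceeded every vehicle sample, and vehicle replicate 3 came closest to the MSC samples. The log2 fold change was 0.51 (95% interval 0.24 to 0.79, limma adjusted p = 0.104). E2f2, a second activator E2F, was at 2.39, 3.27, 3.27 and 2.96 RPKM in the MSC samples, against 2.18, 2.35, 2.26 and 2.38 RPKM in the vehicle samples. MSC replicate 1 stood only just above the highest vehicle sample, which here was replicate 4. Its log2 fold change was 0.27 (95% interval 0.05 to 0.48, limma adjusted p = 0.217). Ccne1, which encodes cyclin E1, had 3.49, 4.20, 4.04 and 4.52 RPKM in MSC veins and 2.79, 3.18, 3.63 and 2.70 RPKM in vehicle veins. The groups overlapped in 1 pair, since vehicle replicate 3 exceeded MSC replicate 1, and the log2 fold change was 0.32 (95% interval 0.09 to 0.54, limma adjusted p = 0.177). Ccne2, the second cyclin E gene, averaged 2.70 ± 0.340 RPKM in MSC and 2.32 ± 0.806 RPKM in vehicle veins (SD, n = 4 each), and its highest value of all 8 samples was in vehicle replicate 3.

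Among the 9 genes of origin licensing and helicase loading the median log2 fold change was 0.35, the highest of the 7 role groups, and the groups overlapped in every gene. Mcm3, a subunit of the MCM ring, was at 17.2, 21.5, 19.3 and 20.9 RPKM in MSC veins and at 10.7, 13.7, 18.9 and 12.2 RPKM in vehicle veins. Vehicle replicate 3 lay within the MSC range, and the other 3 vehicle samples lay below it. The log2 fold change was 0.50 (95% interval 0.15 to 0.85, limma adjusted p = 0.170). Mcm5 had 13.8, 17.3, 17.4 and 18.8 RPKM in MSC veins, against 8.73, 11.8, 15.9 and 11.1 RPKM in vehicle veins, with a log2 fold change of 0.49 (95% interval 0.13 to 0.86, limma adjusted p = 0.186). Mcm6, the most abundant helicase subunit, was at 25.3, 30.6, 29.5 and 31.6 RPKM in MSC veins, against 18.5, 23.5, 28.6 and 19.7 RPKM in vehicle veins, with a log2 fold change of 0.38 (95% interval 0.07 to 0.68, limma adjusted p = 0.225). In both genes vehicle replicate 3 exceeded MSC replicate 1 and no other MSC sample. The promoters of Mcm5 and Mcm6 shown above are those with overlapping E2F motifs.

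The 6 subunits of the ring are held in equal number in the protein complex, and their RNA levels per length were not equal. Averaged over all 8 samples, they were 25.9 RPKM for Mcm6, 18.2 for Mcm7, 16.8 for Mcm3, 14.7 for Mcm4, 14.3 for Mcm5 and 11.03 for Mcm2. Their log2 fold changes differed too, from 0.20 for Mcm4 (95% interval -0.14 to 0.54) to 0.50 for Mcm2 (95% interval 0.13 to 0.88), with intervals that overlap. Mcm4 was at 18.1 RPKM in vehicle replicate 3, above all 4 MSC samples. The loading factors Cdt1 and Cdc6 had log2 fold changes of 0.30 and 0.20, and Mcm10, which helps to start the loaded helicase, had 0.35. Cdt1 was the only gene of this role in which MSC replicate 1, at 4.15 RPKM, lay below 3 of the 4 vehicle samples.

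Gins2, a subunit of the GINS complex that completes the active helicase, had the smallest p of the 39 genes. It was at 10.8, 10.3, 12.7 and 11.7 RPKM in MSC replicates 1 to 4, and at 7.74, 7.67, 8.85 and 7.31 RPKM in vehicle replicates 1 to 4. The gap between the lowest MSC and the highest vehicle sample was larger than the distance between any neighbouring vehicle samples. The log2 fold change was 0.48 (SE 0.09, 95% interval 0.28 to 0.68, limma adjusted p = 0.0608). It passed, with an adjusted p of 0.0490, only when samples were rescaled by the median of their ratios, and its adjusted p ran from 0.0490 to 0.170 over the 17 alternatives. An exon of Gins2 overlaps Gse1 on the opposite strand, and Gse1 averaged 5.01 ± 0.580 RPKM in MSC and 4.50 ± 0.528 RPKM in vehicle veins (± SD, 4 samples each; log2 fold change 0.13). Without strand in the counting, which the labels do not mention, reads from Gins2 and Gse1 mix.

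Cdc45, which joins GINS on the helicase, had 5.96, 7.19, 7.21 and 7.41 RPKM in MSC veins and 4.21, 5.39, 6.82 and 4.65 RPKM in vehicle veins. Only vehicle replicate 3 reached into the MSC range, and the log2 fold change was 0.35 (95% interval 0.06 to 0.64, limma adjusted p = 0.225). The other GINS subunits differed in level and in fold change. Gins4 averaged 11.1 RPKM over the 8 samples with a log2 fold change of 0.11, the smallest of the 39, Gins1 averaged 4.02 RPKM with 0.28, and Gins3 averaged 2.34 RPKM with 0.26. Gins3 had the widest spread of the 39 genes on the log2 scale in vehicle veins, from 1.23 RPKM in replicate 1 to 3.19 RPKM in replicate 3.

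The polymerase and primase genes had the lowest median log2 fold change of the 7 role groups, 0.25 over 5 genes. Pole, the catalytic subunit of the leading-strand polymerase, was at 2.74, 3.43, 3.83 and 3.82 RPKM in MSC veins and at 2.51, 2.35, 3.29 and 2.57 RPKM in vehicle veins (log2 fold change 0.27, 95% interval 0.02 to 0.53, limma adjusted p = 0.275). Prim1, the primase that makes the RNA primers, was at 8.42, 9.11, 10.6 and 9.99 RPKM in MSC veins and at 6.90, 7.22, 10.1 and 7.41 RPKM in vehicle veins (log2 fold change 0.25, 95% interval -0.03 to 0.52, limma adjusted p = 0.346). In both genes vehicle replicate 3 lay among the MSC samples and the other 3 vehicle samples lay below all of them. Pold1, the catalytic subunit of the lagging-strand polymerase, had a log2 fold change of 0.28. Pola1 and Pola2, subunits of the polymerase bound to primase, had 0.12 and 0.18, and in both the highest of the 8 samples was vehicle replicate 3. Without vehicle replicate 1, Pola1 was the only 1 of the 39 genes with a log2 fold change below 0, at -0.01.

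Of the clamp loader, a ring-opening ATPase that places Pcna on DNA, 3 of the 4 subunits examined had groups that did not overlap, against 5.61% of all genes with MSC higher, and the values of 2 of the 3 are uncertain, as described after them. Rfc5 was at 8.62, 9.63, 9.91 and 10.2 RPKM in MSC veins and at 6.32, 6.200, 8.25 and 7.08 RPKM in vehicle veins (log2 fold change 0.42, 95% interval 0.20 to 0.64, limma adjusted p = 0.101). Rfc2 was at 19.1, 20.01, 21.9 and 20.8 RPKM in MSC veins and at 14.0, 14.0, 18.6 and 15.7 RPKM in vehicle veins (log2 fold change 0.38, 95% interval 0.15 to 0.61, limma adjusted p = 0.130). Rfc3, whose sequence with an E2F motif is shown above, was at 8.29, 8.55, 8.91 and 8.52 RPKM in MSC veins and at 5.67, 6.52, 8.03 and 6.12 RPKM in vehicle veins (log2 fold change 0.34, 95% interval 0.12 to 0.56, limma adjusted p = 0.143). In all 3 the highest vehicle sample was replicate 3, and the MSC samples of Rfc3 lay closest together. Rfc4 overlapped between groups, with 8.77 RPKM in vehicle replicate 3 and at most 8.19 RPKM in MSC veins, and a log2 fold change of 0.16.

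The values of Rfc2 and Rfc5 are uncertain because their exons overlap a gene on the opposite strand. For Rfc2 this is Lat2, an adaptor gene of leukocytes, which averaged 31.2 ± 1.84 RPKM in MSC and 23.3 ± 1.81 RPKM in vehicle veins (± SD, 4 samples each; limma log2 fold change 0.41, adjusted p = 0.0770). For Rfc5 it is Wsb2, at 32.9 ± 2.31 RPKM in MSC and 27.9 ± 2.85 RPKM in vehicle veins (± SD, 4 samples each; log2 fold change 0.23). Both neighbours were more abundant than the clamp loader gene they overlap and had a fold change of the same sign, and their part in the values of Rfc2 and Rfc5 was not tested.

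Pcna, the clamp that tethers polymerases to DNA, was the most abundant of the 39 genes. It was at 86.5, 91.1, 95.2 and 88.2 RPKM in MSC veins and at 66.0, 79.1, 91.0 and 69.6 RPKM in vehicle veins. Vehicle replicate 3 exceeded MSC replicates 1 and 4, and the log2 fold change was 0.25 (95% interval 0.01 to 0.49, limma adjusted p = 0.293). A near-identical pseudogene, Pcna-ps2, can share its reads. Fen1, which trims flaps on the lagging strand, and Lig1, which seals the nicks, had log2 fold changes of 0.37 and 0.33. Rpa2, part of the protein that coats unwound DNA, had 0.26 and reached its highest value, 10.4 RPKM, in vehicle replicate 3.

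**Figure D3:**
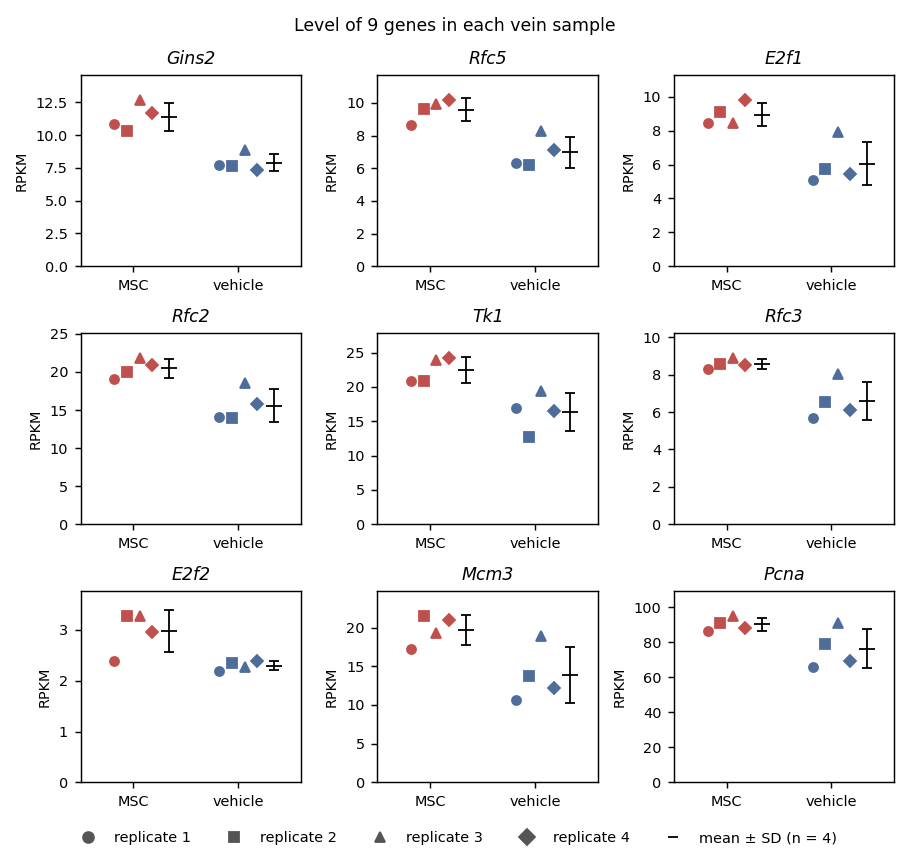
RPKM of 9 genes in each sample, MSC left of vehicle, with marker shapes for replicates 1 to 4 and bars for the mean ± SD (n = 4). In the 7 genes whose groups do not overlap, and in Mcm3 and Pcna where they do, vehicle replicate 3 is the highest vehicle sample except in E2f2.

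In the supply of deoxynucleotides, Tk1, the thymidine kinase of dividing cells, was at 20.8, 20.8, 23.9 and 24.3 RPKM in MSC veins and at 16.9, 12.7, 19.4 and 16.5 RPKM in vehicle veins. All 4 MSC samples lay above all 4 vehicle samples, with a log2 fold change of 0.44 (95% interval 0.16 to 0.72, limma adjusted p = 0.139). Rrm2, the regulated subunit of ribonucleotide reductase, was at 15.2, 19.8, 17.5 and 20.8 RPKM in MSC veins and at 12.4, 12.7, 19.8 and 11.99 RPKM in vehicle veins. Vehicle replicate 3 stood far from the other vehicle samples and exceeded MSC replicates 1 and 3 (log2 fold change 0.36, 95% interval -0.002 to 0.73, limma adjusted p = 0.304). Rrm1, the large subunit, was at 20.7, 23.1, 23.4 and 25.4 RPKM in MSC veins and at 17.8, 20.4, 25.6 and 17.7 RPKM in vehicle veins (log2 fold change 0.19, 95% interval -0.09 to 0.47, limma adjusted p = 0.485). Its highest value of all 8 samples was in vehicle replicate 3. Tyms, which makes thymidylate, had a log2 fold change of 0.18.

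Among genes that rebuild chromatin behind the fork, both named subunits of chromatin assembly factor 1, which deposits new histones, had intervals above 0. Chaf1a was at 5.29, 6.499, 6.72 and 7.54 RPKM in MSC veins and at 3.95, 4.72, 5.73 and 3.905 RPKM in vehicle veins (log2 fold change 0.43, 95% interval 0.14 to 0.72, limma adjusted p = 0.155). Chaf1b was at 5.67, 5.83, 6.56 and 6.201 RPKM in MSC veins and at 4.25, 4.16, 5.86 and 4.20 RPKM in vehicle veins (log2 fold change 0.34, 95% interval 0.10 to 0.58, limma adjusted p = 0.170). In each gene the other 3 vehicle samples lay below all MSC samples, and vehicle replicate 3 did not. Uhrf1, which brings the maintenance methylase to new DNA, had a log2 fold change of 0.32, and Slbp, which binds the stem-loop of histone messages, had 0.15.

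The 39 genes moved together within groups as well as between them. Vehicle replicate 3 was the highest of the 4 vehicle samples in 38 of the 39 genes, against 41.8% of all genes tested, and E2f2 was the exception. It was the highest of all 8 samples in 11 genes: Cdc6, Mcm4, Gins3, Pola1, Pola2, Rfc4, Rpa2, Rrm1, Tyms, Ccne2 and Slbp. MSC replicate 1 was the lowest of the 4 MSC samples in 34 genes, against 43.6% of all genes, and vehicle replicate 1 was the lowest of all 8 samples in 27, against 27.6% of all genes. The spread was wider in vehicle veins, where the SD of log2(RPKM + 1) exceeded that in MSC veins in 34 of the 39 genes, against 66.2% of all genes. The mean over the 39 genes of log2(RPKM + 1), taken relative to each gene's mean, was -0.01, 0.18, 0.21 and 0.24 in MSC replicates 1 to 4 and -0.36, -0.17, 0.15 and -0.23 in vehicle replicates 1 to 4. The groups overlapped in this mean, since vehicle replicate 3 exceeded MSC replicate 1.

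The number of genes without overlap thus depended most on 2 samples. Leaving out any sample can raise this number or keep it, and cannot lower it. Without vehicle replicate 3, the MSC and vehicle samples did not overlap in 32 of the 39 genes, against 13.1% of all genes higher in MSC in that fit, the median log2 fold change was 0.41, and 37 genes had an unadjusted p under 0.05, against 14.0% of all genes. None passed adjustment there either. Without MSC replicate 1 the groups did not overlap in 20 genes, against 10.7% of all genes. Leaving out any other sample gave 7 or 8 such genes, and the median log2 fold change stayed between 0.26 and 0.41 over the 8 fits. It was 0.26 without vehicle replicate 1 and 0.26 without MSC replicate 4. In each of these fits 16 genes had an unadjusted limma p under 0.05, against 21 with all samples. The share over all genes is not given for either fit.

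**Figure D4:**
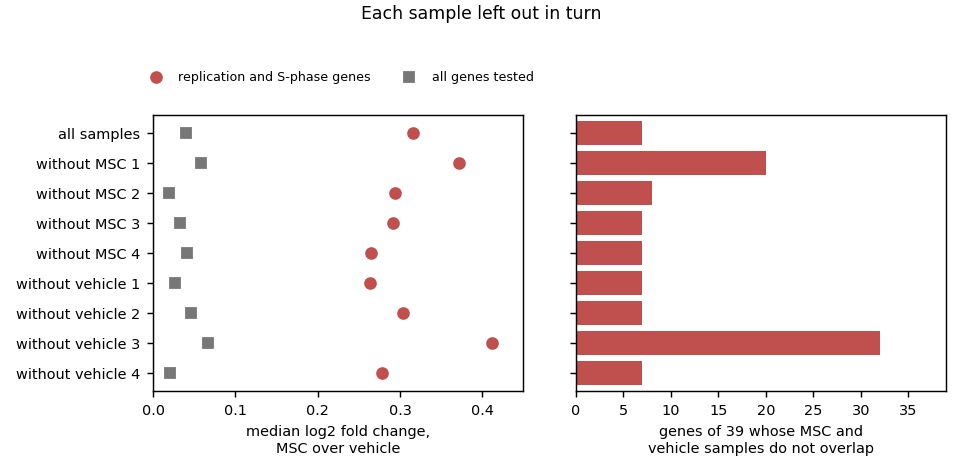
Left, the median log2 fold change of MSC over vehicle for the 39 genes and for all genes tested, with all samples and with each left out. Right, the number of the 39 genes whose groups do not overlap, 7 with all samples, 32 without vehicle replicate 3 and 20 without MSC replicate 1.

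The rest of the replication pathway was read from lists of 120 further genes, of which 116 had a mean of at least 1 RPKM and were tested and 0 passed in limma. In limma an unadjusted p under 0.05 was reached by 22 of them with a positive and by 2 with a negative log2 fold change. Over all genes these shares were 10.1% and 6.36% in limma. Voom also called 0, and 19 had an unadjusted p under 0.05 in voom, with no share over all genes given. Of 38 other replication factors tested, 31 had a log2 fold change above 0, with a median of 0.12, below the 0.32 of the 39 genes. Dna2, a nuclease and helicase of the lagging strand, averaged 4.49 ± 0.286 RPKM in MSC and 3.32 ± 0.472 RPKM in vehicle veins (± SD, 4 samples each; limma log2 fold change 0.35, adjusted p = 0.132). Rnaseh2a, a subunit of the ribonuclease that removes RNA from DNA, had a log2 fold change of 0.28 and Pold2, a polymerase delta subunit, 0.30. The groups did not overlap in 2 of the 38 genes, Dna2 and Rnaseh2a, a share close to the 5.61% of all genes. Among 20 further genes of nucleotide synthesis, 17 were above 0 with a median of 0.25, among them Dut, which clears dUTP (0.37), and the purine synthesis genes Impdh1 (0.33) and Gart (0.33).

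Upstream control of S phase gave values in both directions. Cdk4, the cyclin D kinase that acts on pocket proteins, averaged 75.2 ± 1.70 RPKM in MSC and 56.4 ± 6.25 RPKM in vehicle veins (± SD, 4 samples each; limma log2 fold change 0.41, adjusted p = 0.0883), with no overlap between groups. Rbl2, a pocket protein of resting cells, averaged 7.86 ± 0.216 RPKM in MSC and 9.22 ± 0.472 RPKM in vehicle veins (± SD, 4 samples each; limma log2 fold change -0.20, adjusted p = 0.188), and here all MSC samples lay below all vehicle samples, as in 4.17% of all genes. The list of 22 genes of G1 to S control had 18 above 0 and a median of 0.14, and E2f4, the E2F of resting cells, had 0.33. Of these 22, only Cdk4 lay without overlap higher in MSC and only Rbl2 lower. Both shares are close to the 5.61% and 4.17% over all genes. Of the 7 inhibitors of cyclin-dependent kinases 5 were tested. Cdkn2c, an inhibitor of Cdk4 and Cdk6, was at 7.73, 11.04, 11.7 and 9.06 RPKM in MSC veins and at 13.8, 13.5, 16.6 and 26.3 RPKM in vehicle veins, again without overlap (log2 fold change -0.73, limma adjusted p = 0.140). Cdkn1b and Cdkn1c had log2 fold changes of -0.08 and 0.27. Among 11 other chromatin genes of the fork, all were above 0 with a median of 0.15, led by the histone chaperone Asf1b (0.43), with Cdca7 at 0.39 and Hells at 0.33.

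Genes of mitosis, which act after S phase, lay above 0 in 20 of 20 with a median log2 fold change of 0.23, and 3 had an unadjusted p under 0.05: the mitotic kinase genes Aurka (0.38) and Plk1 (0.39) and the spindle checkpoint gene Bub1b (0.31). Over all genes 10.1% reached that p with MSC higher. Mki67, a marker of cycling cells, was at 16.2, 17.7, 22.3 and 24.6 RPKM in MSC veins and at 15.1, 15.3, 22.4 and 15.8 RPKM in vehicle veins, with a log2 fold change of 0.22 (limma adjusted p = 0.529). Vehicle replicate 3 exceeded 3 of the 4 MSC samples in Mki67. The mean over the mitosis genes relative to each gene's mean was -0.05, 0.05, 0.15 and 0.31 in MSC replicates 1 to 4 and -0.22, -0.28, 0.27 and -0.23 in vehicle replicates 1 to 4, so vehicle replicate 3 stood apart here too. Whether the 39 genes differ from the mitosis genes was not tested.

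Several cell type markers moved with the groups or with the samples that stood apart. All 8 adipocyte markers had a negative log2 fold change, and their summed level was 356 to 1766 RPKM in MSC veins, against 3020.0 to 4551 RPKM in vehicle veins. The 8 skeletal muscle markers summed to 592, 559.9, 527 and 7.06 RPKM in MSC replicates 1 to 4 and to 421, 45.7, 2.25 and 91.2 RPKM in vehicle replicates 1 to 4. The lowest sum in each group was thus in MSC replicate 4 and vehicle replicate 3. In these samples the mean of the 39 genes was the highest of its group. The highest sum was in MSC replicate 1 and vehicle replicate 1, where that mean was lowest. Between the groups the direction was shared, since all 8 muscle markers had a positive log2 fold change (median 1.58), as the 39 genes did. Monocyte and macrophage markers summed to 3058 to 5019 RPKM in MSC and 2325 to 3272 RPKM in vehicle veins (7 of 8 positive), and neutrophil markers to 561 to 1349 RPKM and 218 to 803 RPKM (6 of 6 positive). Markers of smooth muscle summed to 201, 156, 182 and 279 RPKM in MSC replicates 1 to 4 and to 128, 198, 282 and 167 RPKM in vehicle replicates 1 to 4. Their sum was highest in MSC replicate 4 and vehicle replicate 3, where the mean of the 39 genes was also the highest of its group. It was lowest in vehicle replicate 1, like that mean, but among MSC samples in replicate 2, unlike it. Endothelial markers summed to 396 to 662 RPKM in MSC and 531 to 656 RPKM in vehicle veins, and fibroblast markers to 3075 to 4226 RPKM and 3149.6 to 5025 RPKM. Of the markers tested, 2 of 5 for smooth muscle, 3 of 8 for endothelium and 2 of 8 for fibroblasts were positive.

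Markers of blood cells that divide outside the vein were at low levels, those of erythroid precursors excepted. The 6 markers of myeloid precursors summed to 2.23 to 3.37 RPKM in MSC and 2.02 to 6.29 RPKM in vehicle veins, the 9 of T cells and thymocytes to 2.71 to 8.85 RPKM and 2.42 to 8.47 RPKM, and the 5 of B cells to 2.90 to 13.2 RPKM and 1.79 to 4.72 RPKM. Those of erythroid precursors summed to 27.9 to 38.9 RPKM in MSC and 24.4 to 50.8 RPKM in vehicle veins. No marker in these lists was at 0 in all samples. The part of any of these cell types in the levels of the 39 genes was not tested.

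**Figure D5:**
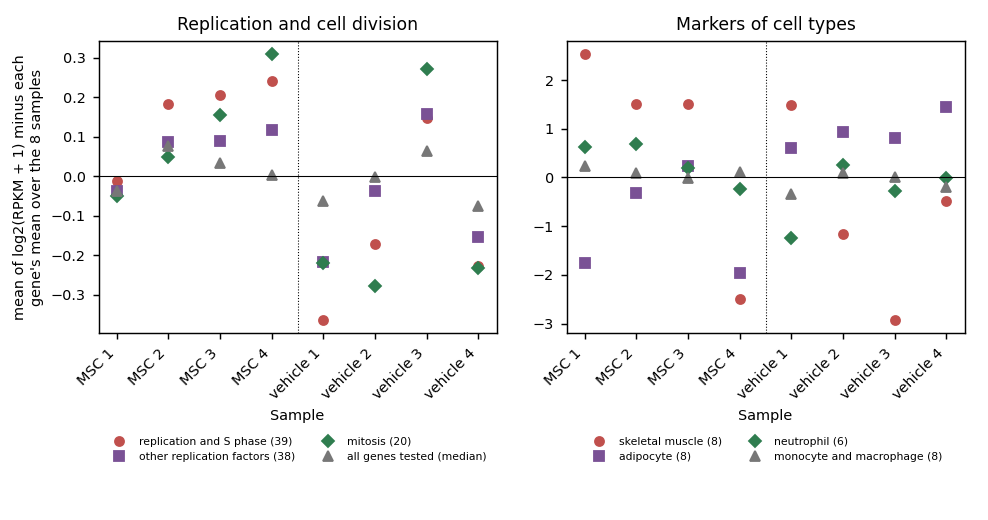
Mean of log2(RPKM + 1) relative to each gene's mean over the 8 samples, for lists of genes in each sample, MSC left of vehicle, with the number of genes in brackets. Left, replication and mitosis genes are high in vehicle replicate 3, where the 39 genes reach 0.15. Right, skeletal muscle markers are lowest in vehicle replicate 3 and MSC replicate 4.

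In GRCm38 coordinates of GENCODE vM21, counted from 1, Gins2 spans 120578633 to 120589304 on chromosome 8 and E2f1 spans 154559407 to 154569892 on chromosome 2. E2f2 lies at 136172394 to 136196057 on chromosome 4 and Tk1 at 117815526 to 117826092 on chromosome 11. Rfc2, Rfc3 and Rfc5 lie on chromosome 5, at 134581366 to 134601805, 151642756 to 151651242 and 117378103 to 117389047. All 39 genes are protein-coding, and exons of 13 of them overlap another gene, mostly on the opposite strand, among them Tk1 with Afmid, Chaf1a with Ubxn6, Cdc45 with Ufd1 and Mcm7 with Ap4m1 and Cops6. Near-identical copies elsewhere in the genome, which can share reads, exist for Cdc6, Mcm7, Rfc5, Uhrf1, Slbp and Rrm2 besides Pcna. Parts of Tyms match other transcripts over 330.0 to 361 bases, and Fen1 matches Gm10143, which overlaps it on the opposite strand. These values are uncertain to that extent.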

How the data were processed

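The authors deposited RPKM values, 1 column per sample with no pooling, on genome mm10 according to the submitters' processing notes. Libraries were made from 0.5 µg of total RNA with a TruSeq V2 kit, per the labels' protocols. The sources used here do not state aligner, counting tool, annotation or use of strand. RPKM are not counts, so log2(RPKM + 1) was fitted in limma (version 3.58.1, under R 4.3.3) with a trended variance and no block, and 2-sided p-values were adjusted by Benjamini-Hochberg over 12129 genes averaging 1 RPKM or more. The threshold was an adjusted p of 0.05. This scale understates the change of low genes. Whole reads were recovered from the steps of the RPKM values (100% of 143006 values above 0 within 0.001 reads) for voom. The fit was tested on simulated data.

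The 39 genes and the other lists were chosen with earlier results of these data known, and the lists were described without a test of their own. Values of every sample are given for the 2 genes with the smallest p in each of 7 role groups, those whose groups did not overlap and the 3 of highest level. From each other pathway list up to 3 genes by p, and Mki67, are named. Values given for other members were picked after they were seen. Of the listed genes 4 were matched under an older symbol and Ly6g was not used. Coordinates and overlaps are from GENCODE vM21, and copies were searched with blastn at 95% identity over 300 bases. The chi-square per degree of freedom between replicates was at least 32.8, so all 8 samples were kept. Alternatives covered pseudocount, filter, scaling, block, weights, trend, voom and each sample left out.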

Additional observations from a re-analysis of the deposited data

Results flagged for a closer look

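In groups of 4 samples, 1 sample lay far from the other 3, relative to the whole range, in 12 of 144 groups examined, and chance gives about 1 in 20. In 8 of these, vehicle replicate 3 was higher than the other 3 vehicle samples. Among genes these were Prim1 at 10.1 RPKM (others 6.90 to 7.41), Rrm2 at 19.8 RPKM (others 11.99 to 12.7), Chaf1b at 5.86 RPKM (others 4.16 to 4.25), Mki67 at 22.4 RPKM (others 15.1 to 15.8), Aurka at 9.86 RPKM (others 5.98 to 6.22), and Plk1 at 10.3 RPKM (others 5.97 to 6.62). As the mean over a list of log2(RPKM + 1) relative to each gene's mean, the 4 nucleotide supply genes were at 0.19 in vehicle replicate 3 (others -0.28 to -0.23). The same measure over the 20 mitosis genes was 0.27 in vehicle replicate 3 (others -0.28 to -0.22).

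MSC replicate 1 was lower than the other 3 MSC samples in Mcm2 at 10.2 RPKM (others 13.9 to 14.1), Cdc45 at 5.96 RPKM (others 7.19 to 7.41) and Pold1 at 5.10 RPKM (others 7.41 to 7.57). Rbl2 was at 8.52 RPKM in vehicle replicate 2, below the other vehicle samples (9.40 to 9.53). These genes share the samples that stand apart, so they are not independent of each other.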

How the results depend on the processing

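Over 17 alternatives the median log2 fold change of the 39 genes stayed between 0.26 and 0.41, and at least 38 genes kept a log2 fold change above 0. The number passing the threshold was 0 throughout, except 1, Gins2, with median-of-ratios scaling. Of 323 refitted values of named genes 322 kept their direction and side of the threshold, and Gins2 under that scaling was the other. Between 16 and 37 genes had an unadjusted p under 0.05. Groups did not overlap in 7 to 32 genes when each sample was left out, with 32 without vehicle replicate 3 and 20 without MSC replicate 1.

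The count over all genes, 28 (3 higher and 25 lower), was less stable: 10 with a pseudocount of 0.1, 1 with no filter, 17 with a filter at 0.3 RPKM, 93 with median-of-ratios scaling (14 higher and 79 lower), 73 with sample weights, and 0 to 171 with a sample left out. Without MSC replicates 1 to 4 in turn it was 3, 5, 171 and 0, and without vehicle replicates 1 to 4 it was 17, 0, 1 and 8. The cause was not tested. That scaling moved the median log2 fold change of all genes to 0.01, against 0.04. Replicate numbers did not pair the samples, since deviations of same-numbered samples correlated at 0.14, -0.003, -0.33 and -0.12, and only MSC replicate 1 correlated best with its own number. With the replicate block 0 genes passed over all genes and 0 of the 39. Every one of the 39 genes had at least 137 reads in each sample.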

Other observations

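B cell markers were highest in MSC replicate 3, where the 5 summed to 13.2 RPKM, against 3.87, 2.90 and 2.94 RPKM in MSC replicates 1, 2 and 4 and at most 4.72 RPKM in a vehicle sample. The mean of log2(RPKM + 1) over the 39 genes, relative to each gene's mean, was 0.21 in that sample and 0.24 in MSC replicate 4.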
